A study of Mus musculus with 8 samples.

Results

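Bone morphogenetic protein (BMP) signalling and the Id genes were examined through 10 genes: the ligand gene Bmp4, the receptor gene Bmpr1a, the pseudoreceptor gene Bambi, the signal transducers Smad1 and Smad5, the inhibitory Smad6, and Id1, Id2, Id3 and Id4. The 10 were listed by symbol and all 10 were found, each with 1 row, among the 17731 gene identifiers used. They were measured by total RNA sequencing in E14TG2a cells, a mouse embryonic stem cell line of strain 129/Ola. The 4 groups, each of 2 biological duplicates, were wild-type cells (WT) and 3 enhancer knockouts made by CRISPR/Cas9 (E1-KO, E2-KO and E3-KO), in a study of how promoter and enhancer contacts bear on Sox2. All 8 samples had been cultured on gelatin, without feeder cells, in a medium with foetal bovine serum, leukaemia inhibitory factor, the GSK3 inhibitor CHIR99021 and the MEK inhibitor PD0325901. The labels state neither where the deleted enhancers lie nor whether a knockout was a single clone, so a difference from WT and a difference between clones or cultures cannot be told apart.

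BMP ligands bind a pair of type I and type II receptor kinases, which phosphorylate SMAD1 and SMAD5. These enter the nucleus with SMAD4 and switch on targets that include the Id genes and the feedback inhibitors Smad6 and Smad7. Id proteins carry a helix-loop-helix domain without a DNA-binding region, so they capture E proteins such as those of Tcf3, Tcf4 and Tcf12 and keep them from DNA. In mouse embryonic stem cells, BMP4 or serum acts together with leukaemia inhibitory factor, and Id proteins are known to hold back neural differentiation.

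To show what the Id genes share, the 90-base stretch of Id1 coding sequence most like the other 3 genes is printed below with its counterparts, from the GENCODE M21 transcripts, 5′ to 3′, with the bases identical in all 4 genes in capitals.
Id1, coding bases 211 to 300: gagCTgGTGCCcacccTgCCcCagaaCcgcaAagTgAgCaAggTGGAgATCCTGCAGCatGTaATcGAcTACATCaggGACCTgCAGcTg
Id2, coding bases 142 to 231: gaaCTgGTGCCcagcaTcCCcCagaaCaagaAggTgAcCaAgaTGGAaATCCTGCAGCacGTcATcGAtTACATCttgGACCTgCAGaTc
Id3, coding bases 157 to 246: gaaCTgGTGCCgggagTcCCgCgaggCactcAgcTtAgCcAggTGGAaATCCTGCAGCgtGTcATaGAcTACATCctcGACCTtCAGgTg
Id4, coding bases 229 to 318: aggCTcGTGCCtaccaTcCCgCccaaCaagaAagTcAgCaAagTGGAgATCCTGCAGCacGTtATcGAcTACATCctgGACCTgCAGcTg
In this stretch 52 of 90 bases were identical in all 4 genes, and Id1 was 80% identical to Id2 and to Id4 and 67.8% identical to Id3. Over whole coding sequences the longest run of bases shared exactly by any pair was 17 bases, between Id1 and Id4.

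Promoters are printed for Id2, Id3, Id4 and Smad6, which cover a gene higher in E3-KO, a gene without a call, a gene lower in all 3 knockouts and a gene higher in all 3. The RefSeq table (GRCm38.p6) held promoters for 8 of the 10 genes, and not for Id1 or Bambi. Capitals mark GTCTAGAC (a palindromic SMAD box), GGCGCC (the GC-rich site of SMAD1 and SMAD5) and CAGAC or its reverse complement (a SMAD box), searched on both strands in windows from 250 bases before to 50 bases after the start.
Id2, chr12:25096093-25096342, minus strand: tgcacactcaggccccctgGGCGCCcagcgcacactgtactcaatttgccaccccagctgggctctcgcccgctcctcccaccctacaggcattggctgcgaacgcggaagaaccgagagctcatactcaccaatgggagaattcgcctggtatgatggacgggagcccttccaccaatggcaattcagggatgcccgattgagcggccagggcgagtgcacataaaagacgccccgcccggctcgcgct
Id3, chr4:136143572-136143821, plus strand: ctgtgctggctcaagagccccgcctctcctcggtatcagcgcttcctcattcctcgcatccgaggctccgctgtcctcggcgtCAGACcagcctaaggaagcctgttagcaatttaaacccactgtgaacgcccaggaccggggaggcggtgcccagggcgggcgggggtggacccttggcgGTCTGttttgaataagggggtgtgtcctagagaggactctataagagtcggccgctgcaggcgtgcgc
Id4, chr13:48260866-48261115, plus strand: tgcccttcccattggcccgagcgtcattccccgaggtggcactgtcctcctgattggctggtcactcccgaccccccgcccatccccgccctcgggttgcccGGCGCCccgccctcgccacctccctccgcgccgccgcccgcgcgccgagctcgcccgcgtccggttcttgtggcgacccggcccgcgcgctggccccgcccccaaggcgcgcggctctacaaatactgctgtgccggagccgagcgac
Smad6, chr9:64022056-64022309, minus strand: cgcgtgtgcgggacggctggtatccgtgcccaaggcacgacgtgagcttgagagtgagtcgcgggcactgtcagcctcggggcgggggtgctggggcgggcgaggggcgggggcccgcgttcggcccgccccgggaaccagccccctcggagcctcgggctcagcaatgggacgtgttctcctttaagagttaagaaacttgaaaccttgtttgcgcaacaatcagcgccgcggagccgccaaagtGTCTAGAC
Smad6 held GTCTAGAC across its start, from 4 bases before it, and 0.213% of all 32851 promoter windows held this motif. GGCGCC lay 231 bases before the start of Id2 and 148 bases before that of Id4, and it occurred in 11.9% of all windows. Id3 held CAGAC on either strand, at 167 and 68 bases before the start, a motif found in 49.6% of windows. A match describes letters only. Among the genes whose promoters are not printed, Bmpr1a held GGCGCC 198 bases before its start. The 3 windows of Smad5 held GGCGCC at base 24 after the start, GGCGCC 19 bases before it and CAGAC 21 bases before it. Bmp4 and Smad1 held none of the 3 motifs in this window.

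Values are FPKM, fragments scaled by transcript length and sequencing depth, so levels of different genes can be set side by side. The number of reads per sample was not known. From the steps of low values, depths were put at 0.785 to 1.01 relative to WT replicate 1 as rough estimates, and 11078 to 11265 genes reached 1 FPKM per sample. Sox2, the gene of the study, was at 131 and 136 FPKM in WT, 58.0 and 60.3 in E1-KO, 114 and 97.5 in E2-KO, with E3-KO at 97.7 and 91.0. The 7 stem cell markers checked (Pou5f1, Nanog, Zfp42, Esrrb, Klf4, Sall4 and Tdgf1) were at 68.9 FPKM or more in every sample, but their levels moved with the groups. Klf4 was lower in all 3 knockouts, at 159 and 181 FPKM in WT and 68.9 to 87.9 in the knockouts. Esrrb was called lower in E1-KO and E3-KO and Tdgf1 in E3-KO, whereas Sall4 was called higher in E2-KO and E3-KO and Pou5f1 and Zfp42 in E2-KO. The calls of Klf4, and those of Esrrb and Sall4 in E3-KO, held under every alternative run, and the others did not. The part of these shifts in the levels below was not tested. Fold changes were taken from log2(FPKM + 1), where changes of low genes appear smaller than they are. Each was tested by limma-trend, with p-values adjusted (Benjamini-Hochberg) over the 11272 genes whose mean reached 1 FPKM. A gene was called at an adjusted p under 0.05. In bulk RNA, fewer cells of a type and less RNA per cell cannot be told apart.

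Of the 10 genes, 9 passed the filter on low values and Bambi did not. Against WT, E1-KO had 4 of the 9 called, 3 higher and 1 lower. Of all tested genes 38.0% were called in this comparison, 15.0% higher and 23.0% lower. E2-KO had 3 called, 2 higher and 1 lower, against a background of 36.1% (14.2% higher, 22.0% lower). E3-KO had 5 called, 3 higher and 2 lower, against 44.7% (13.9% higher, 30.8% lower). The shares of the 9 genes called, 44.4%, 33.3% and 55.6%, were thus near the background, and the median log2 fold changes of the 9 were 0.05, 0.00 and -0.01. Id1 and Smad6 were higher and Id4 lower in all 3 knockouts, whereas Bmpr1a, Smad5 and Id3 were called in none. The 3 comparisons share the same 2 WT samples. The share of all tested genes called in all 3 was not counted, so nothing is read from this agreement. All tested genes together had medians of -0.06, -0.08 and -0.15 in the same order. The split of calls over all genes shifted with the scale: higher and lower calls numbered 1595 and 2476 for E2-KO and 1566 and 3471 for E3-KO, and with median-ratio scaling 2002 and 1968, and 2359 and 2369. Median-ratio scaling, which moves these medians to about 0, took 1 member call away, that of Smad1 in E3-KO, and all other member calls against WT kept their direction and stayed called under it and under quantile normalization.

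**Figure D1:**
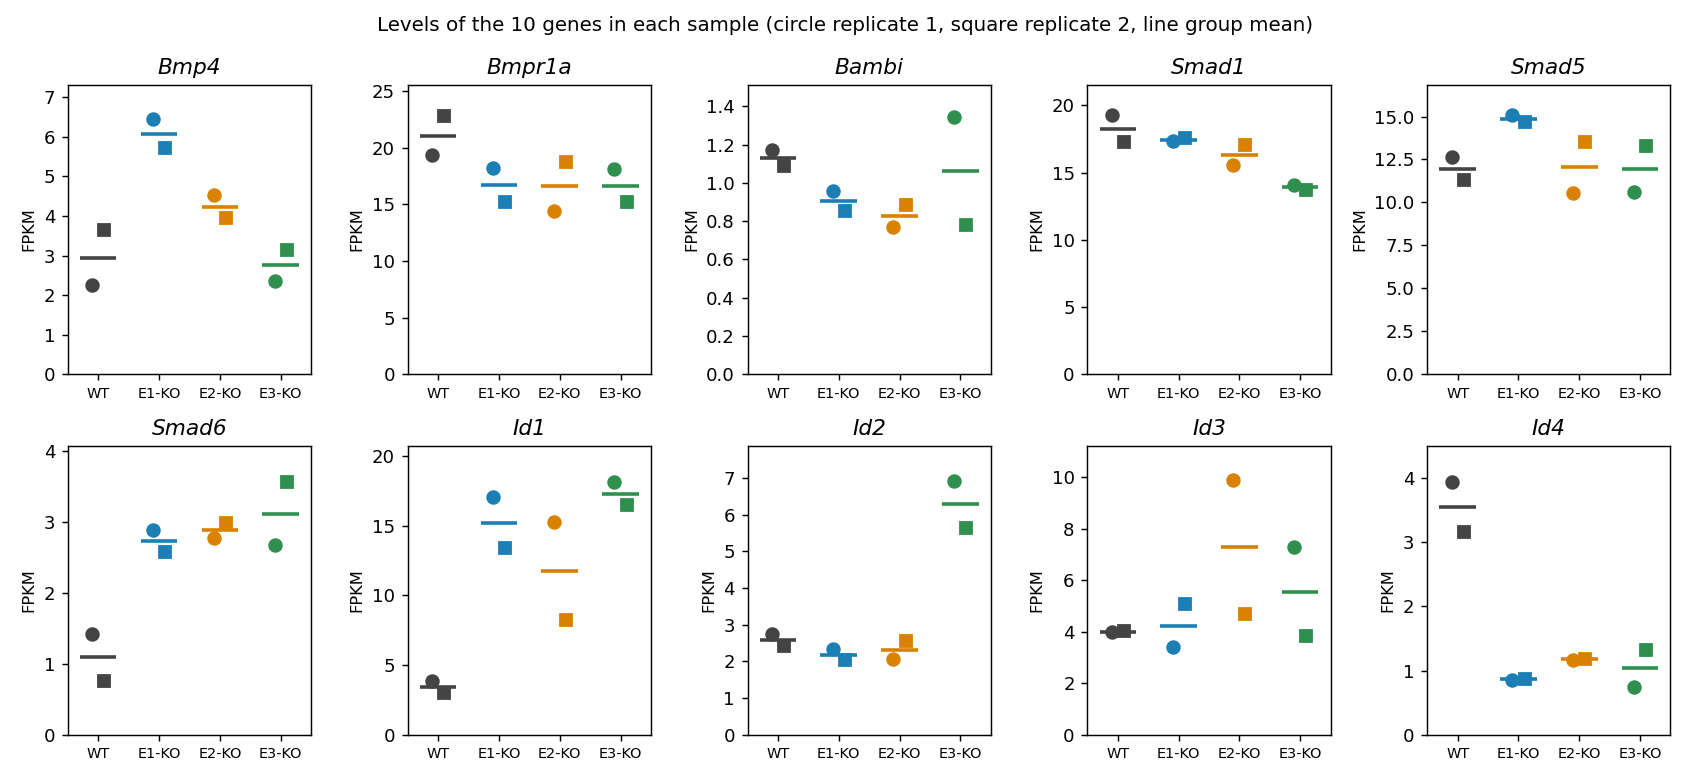
FPKM (vertical axes, from 0) of each of the 10 genes in the 8 samples, by group; circles are replicate 1, squares replicate 2 and lines group means (n = 2). Id1 lies at 8.25 FPKM or more in every knockout sample against 3.84 at most in WT, Id4 at 1.32 or less against at least 3.15, and Id2 is raised in the E3-KO samples.

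Bmp4, the ligand gene, was higher in E1-KO. Its level was 2.25 and 3.63 FPKM in WT, 6.44 and 5.73 in E1-KO, 4.52 and 3.94 in E2-KO, with E3-KO at 2.35 and 3.15. Samples of E1-KO and E2-KO all lay above both WT samples, and those of E3-KO lay within the WT range. The mean in E1-KO was 2.07 times that of WT (log2 fold change 0.87, standard error 0.19, limma-trend adjusted p = 0.00835). The call was lost without E1-KO replicate 1 (0.79, adjusted p = 0.0611 by limma-trend) and without WT replicate 1 (0.61, adjusted p = 0.0643). In E2-KO the difference of 0.43 did not pass (limma-trend adjusted p = 0.114, 95% interval -0.01 to 0.86), and in E3-KO it was -0.06 (adjusted p = 0.822, interval -0.50 to 0.38). The log2 difference of E3-KO from E1-KO was -0.92 (limma-trend adjusted p = 0.00851), a call lost without E1-KO replicate 1 (-0.85, adjusted p = 0.0654) or without E3-KO replicate 1 (-0.77, adjusted p = 0.0511). Bmp4 lies on the minus strand of chromosome 14 at 46383520 to 46390669 in GRCm38. It overlaps the annotated genes Gm15222 and Gm15217, and the value of Gm15217 was at most 0.277 FPKM in any sample.

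The receptor gene Bmpr1a, for a type I BMP receptor, had the highest level of the 10 genes in WT. It was at 19.4 and 22.8 FPKM in WT, 18.2 and 15.2 in E1-KO, 14.4 and 18.7 in E2-KO, with E3-KO at 18.1 and 15.2. All knockout samples lay below both WT samples. The log2 fold changes of -0.32, -0.34 and -0.32 did not pass the test (limma-trend adjusted p = 0.141, 0.128 and 0.127), and the 95% interval in E2-KO ran from -0.69 to 0.02. Without E2-KO replicate 2 the E2-KO difference passed narrowly (-0.52, limma-trend adjusted p = 0.0499). Bambi encodes a receptor-like protein without a kinase that dampens BMP and related signals. Its level was 1.17 and 1.09 FPKM in WT, 0.956 and 0.852 in E1-KO, 0.768 and 0.883 in E2-KO, with E3-KO at 1.35 and 0.782. It was tested only when all genes above 0 were included, where its log2 fold changes were -0.16, -0.22 and -0.06 (limma-trend adjusted p = 0.481, 0.328 and 0.805).

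Smad1 and Smad5, which carry the signal to the nucleus, gave 1 call between them, for Smad1 in E3-KO. Smad1 was at 19.3 and 17.2 FPKM in WT, 17.3 and 17.6 in E1-KO, 15.6 and 17.0 in E2-KO, with E3-KO at 14.1 and 13.7. The E3-KO samples were the lowest of the 8, and the log2 fold change was -0.37 (standard error 0.11, limma-trend adjusted p = 0.0201). This call rested on the scale and on single libraries: it was -0.21 with median-ratio scaling (limma-trend adjusted p = 0.156), -0.19 with quantile normalization (0.200), -0.35 without E3-KO replicate 2 (0.0635) and -0.29 without WT replicate 1 (0.147). In E1-KO and E2-KO the Smad1 differences of -0.06 and -0.15 did not pass (limma-trend adjusted p = 0.684 and 0.287). Smad5 was at 12.6 and 11.3 FPKM in WT, 15.1 and 14.7 in E1-KO, 10.6 and 13.5 in E2-KO, with E3-KO at 10.6 and 13.3. Both E1-KO samples were above all others, with a log2 fold change of 0.29 that did not pass (limma-trend adjusted p = 0.147, 95% interval -0.04 to 0.63).

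Smad6 codes for an inhibitory SMAD that is induced by BMP signals and blocks the type I receptors. It was at 1.42 and 0.764 FPKM in WT, 2.90 and 2.58 in E1-KO, 2.78 and 2.99 in E2-KO, with E3-KO at 2.68 and 3.57. Every knockout sample lay above both WT samples, with group means 2.51, 2.64 and 2.86 times the WT mean. The log2 fold changes were 0.85, 0.91 and 0.99 (standard error 0.19 each, limma-trend adjusted p = 0.00793, 0.00642 and 0.00315). The 3 knockouts did not differ from each other beyond their spread (adjusted p at least 0.639 by limma-trend), and the 95% interval of the E3-KO to E1-KO difference was -0.29 to 0.56. The E1-KO call was lost without WT replicate 2 (0.63, limma-trend adjusted p = 0.0691) or E1-KO replicate 1 (0.79, 0.0560), and the E2-KO call without WT replicate 2 (0.68, 0.0562). Its promoter is the sequence printed above with GTCTAGAC at the start.

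**Figure D2:**
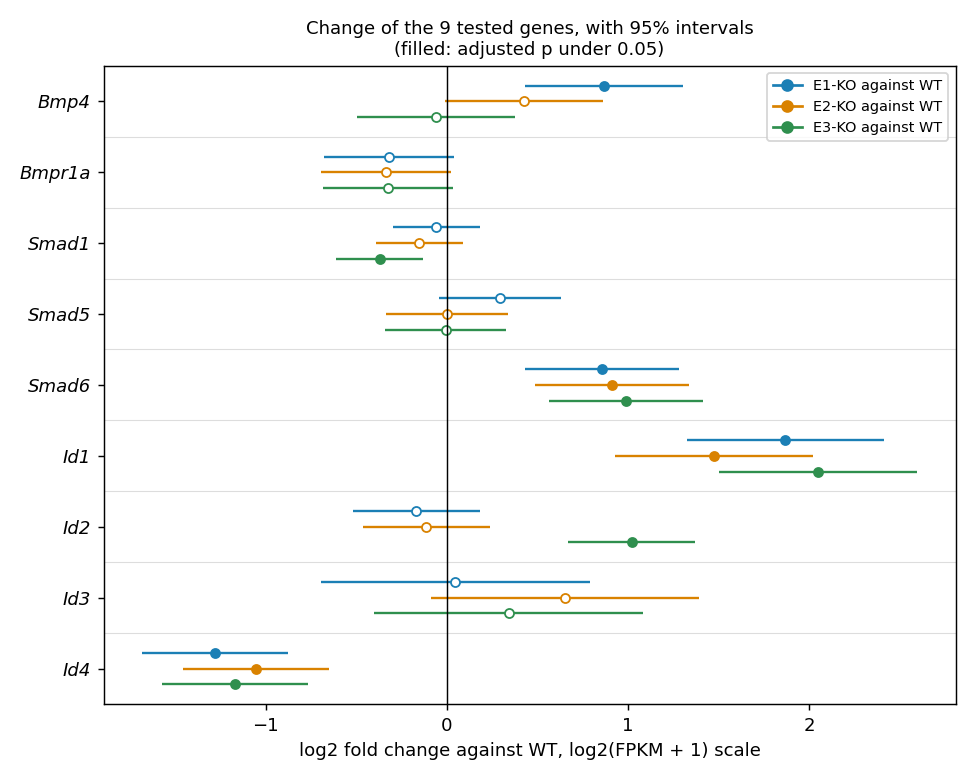
Log2 fold changes against WT on the log2(FPKM + 1) scale (horizontal axis) for the 9 tested genes, with 95% intervals from limma-trend and filled points where the adjusted p was under 0.05. Id1 (1.47 to 2.05) and Smad6 (0.85 to 0.99) lie to the right and Id4 (-1.28 to -1.06) to the left in all 3 knockouts, and Id2 lies to the right only for E3-KO among its points.

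Of the Id genes, Id1 differed most from WT. Its level was 3.84 and 3.03 FPKM in WT, 17.1 and 13.4 in E1-KO, 15.2 and 8.25 in E2-KO, with E3-KO at 18.1 and 16.5. All 6 knockout samples were above both WT samples, and the replicates of E2-KO were the farthest apart. Group means were 4.43, 3.42 and 5.04 times the WT mean, with log2 fold changes of 1.87, 1.47 and 2.05 (standard error 0.24 each, limma-trend adjusted p = 0.000723, 0.00227 and 0.000323). In order of level, E3-KO, E1-KO and E2-KO were not separated by the test (E3-KO against E2-KO 0.58, limma-trend adjusted p = 0.137, 95% interval 0.03 to 1.12). Leaving out any of the 8 samples left all 3 calls in place, with log2 fold changes from 1.07 to 2.31 over every alternative run. Id1 lies on the plus strand of chromosome 2 at 152736251 to 152737410 in GRCm38, and no other annotated gene overlaps it. In the same annotation Id2 lies at 25093799 to 25097140 on chromosome 12 (minus strand), Id3 at 136143497 to 136145755 on chromosome 4 (plus strand) and Smad6 at 63953076 to 64022059 on chromosome 9 (minus strand), each without an overlapping gene. The promoters printed above use RefSeq starts, which can differ from the ends of these spans, and the printed promoters of Id2 and Id3 lie within them. All 10 genes are annotated as protein-coding.

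Id4 went the other way. It was at 3.93 and 3.15 FPKM in WT, 0.858 and 0.874 in E1-KO, 1.17 and 1.19 in E2-KO, with E3-KO at 0.747 and 1.32. No knockout sample reached a WT sample, and the group means were 0.245, 0.332 and 0.292 of the WT mean. The log2 fold changes were -1.28, -1.06 and -1.17 (standard error 0.18 each, limma-trend adjusted p = 0.000997, 0.00266 and 0.00113), and each stayed called under every alternative run on this gene. Differences between knockouts were not called (limma-trend adjusted p at least 0.541). Id4 lies on chromosome 13 at 48261228 to 48266026 (plus strand, GRCm38), where the annotated genes A330033J07Rik and Gm49291 overlap it. No source used here says that reads were counted by strand, so reads from either strand cannot be told apart there.

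Id2 was higher in E3-KO. It was at 2.75 and 2.41 FPKM in WT, 2.34 and 2.03 in E1-KO, 2.07 and 2.56 in E2-KO, with E3-KO at 6.92 and 5.65. The E3-KO samples were above the other 6, and the mean was 2.43 times that of WT (log2 fold change 1.02, standard error 0.16, limma-trend adjusted p = 0.00112). Tested directly, the excess of E3-KO was 1.19 over E1-KO and 1.13 over E2-KO (limma-trend adjusted p = 0.00101 and 0.00250), and these calls held without any of the 8 samples. In E1-KO and E2-KO the differences from WT were -0.17 and -0.11 (limma-trend adjusted p = 0.417 and 0.594). Markers of other cell types also moved in E3-KO. Of the 4 primitive endoderm markers analysed, Gata6 passed the filter on low values only through E3-KO, so its call there is no support. Gata6 was at 3.72 and 1.76 FPKM in E3-KO and 1.04 and 1.15 in WT, and the summed level of the 4 was 2.44 to 4.69 FPKM in E3-KO, 1.55 to 1.65 in WT, 0.736 to 0.739 in E1-KO and 0.938 to 1.12 in E2-KO. For the 5 trophectoderm markers, with Gata3 called higher in E3-KO, the sums were 10.2 to 13.1 FPKM in E3-KO, 5.71 to 6.41 in WT, 6.70 to 9.42 in E1-KO and 5.94 to 8.13 in E2-KO. Eomes was not called, and Sox17, Sox7, Pdgfra, Cdx2, Elf5 and Hand1 were below 1 FPKM in every sample. The part of such cells in the Id2 level was not tested.

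Id3 had no call. It was at 3.99 and 4.02 FPKM in WT, 3.40 and 5.07 in E1-KO, 9.89 and 4.68 in E2-KO, with E3-KO at 7.28 and 3.85. Replicates within each knockout were far apart, and replicate 1 was the higher in E2-KO and E3-KO and the lower in E1-KO. The log2 fold changes of 0.05, 0.65 and 0.34 had 95% intervals of -0.70 to 0.79, -0.09 to 1.39 and -0.40 to 1.08 (limma-trend adjusted p = 0.922, 0.151 and 0.425). Without E2-KO replicate 2 the E2-KO difference was 1.12 and passed (limma-trend adjusted p = 0.0298). Changes of Id3 as large as that of Id2 in E3-KO are therefore within the intervals for E2-KO and E3-KO.

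The make-up of the Id family changed with these levels. In WT the 4 genes were at like levels, and Id1 made up 26.4% and 24.0% of their summed FPKM and Id4 27.1% and 25.0%. In the knockouts Id1 made up 49.5% to 72.1% and Id4 2.26% to 7.11%. The summed level was 14.5 and 12.6 FPKM in WT, 23.7 and 21.3 in E1-KO, 28.4 and 16.7 in E2-KO, with E3-KO at 33.0 and 27.3, so that all 6 knockout samples exceeded WT. These shares restate the levels above and were not tested separately.

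Between knockouts, the 9 tested genes gave no call for E2-KO against E1-KO, where 0.834% of all tested genes were called. E3-KO against E1-KO gave 2 calls, Bmp4 lower and Id2 higher, against 25.8% of all tested genes. E3-KO against E2-KO gave 1 call, Id2, against 15.6%. Over all genes, higher and lower calls numbered 1061 and 1850 against E1-KO (1450 and 1297 with median-ratio scaling) and 618 and 1136 against E2-KO (880 and 818).

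Further genes of the pathway were taken from lists of 67 genes fixed by role, of which 63 had a value and 27 passed the filter on low values. The lists were written with earlier results of these data known. Of these 27 genes, 14 were called in E1-KO (4 higher, 10 lower), 15 in E2-KO (3 higher, 12 lower) and 17 in E3-KO (7 higher, 10 lower). In all, 51.9%, 55.6% and 63.0% were called, against 38.0%, 36.1% and 44.7% of all tested genes. Of all tested genes 15.0%, 14.2% and 13.9% were higher and 23.0%, 22.0% and 30.8% lower. The difference in shares was not tested. Each count of higher calls includes Msx2, which entered the test only through the knockouts. The median log2 fold changes of the 27 genes were -0.17, -0.29 and -0.18, against -0.06, -0.08 and -0.15 for all tested genes.

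Among targets of BMP signalling other than the Id genes, Dusp9 and Msx2 were tested. Dusp9 was higher in all 3 knockouts, whereas Msx2 passed the filter on low values only through the knockout samples, so its calls are given as values and support nothing. Dusp9 codes for a phosphatase of ERK kinases and is a known BMP target in stem cells. It was at 15.7 and 14.5 FPKM in WT, 45.7 and 37.3 in E1-KO, 38.6 and 47.6 in E2-KO, with E3-KO at 38.8 and 35.7. The groups did not overlap with WT, and the log2 fold changes were 1.39, 1.45 and 1.25 (standard error 0.14 each, limma-trend adjusted p = 0.000221, 0.000225 and 0.000223). Msx2, a homeobox gene, was low throughout, at 0.316 and 0.387 FPKM in WT, 1.50 and 1.03 in E1-KO, 1.04 and 1.49 in E2-KO, with E3-KO at 1.50 and 1.88. Its log2 fold changes were 0.74, 0.74 and 0.99 (limma-trend adjusted p = 0.0123, 0.0128 and 0.00253). The E1-KO and E2-KO calls of Msx2 were lost without WT replicate 1 (0.70 in each, limma-trend adjusted p = 0.0685 and 0.0725) or WT replicate 2 (0.78 in each, 0.0569 and 0.0584). They were also lost without E1-KO replicate 1 (0.59, limma-trend adjusted p = 0.0927) and without E2-KO replicate 2 (0.60, 0.0631). The other 6 targets (Msx1, Dlx2, Dlx3, Dlx5, Hey1 and Atoh8) had means under 1 FPKM and were not tested.

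**Figure D3:**
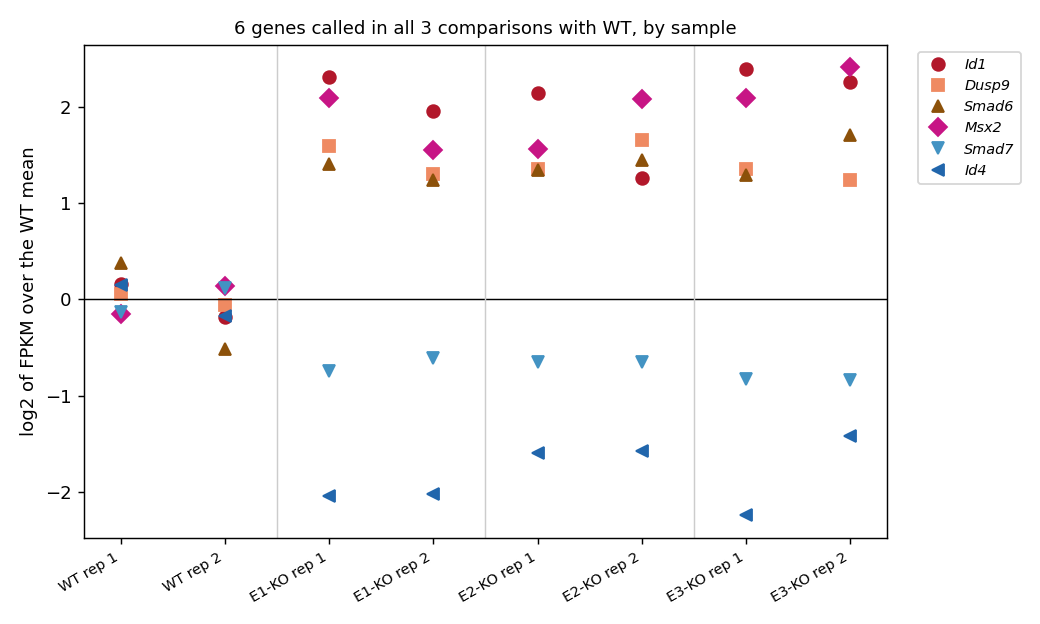
Log2 of FPKM over the WT mean (vertical axis) in each of the 8 samples (horizontal axis) for 6 genes called in all 3 comparisons with WT, chosen after their values were seen; Msx2 entered the test only through the knockouts. Id1, Dusp9, Smad6 and Msx2 lie between 1.24 and 2.42 in the knockout samples, and Smad7 and Id4 between -2.25 and -0.61. The 6 are a selection, and the 3 comparisons share the same 2 WT samples, so they are not independent. Zfp423, called higher in all 3, and Rgmb, Acvr2b, Acvr1, Smad4 and Twsg1, called lower in all 3, are not drawn here.

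Smad7, the other inhibitory SMAD, did not follow Smad6. It was at 55.7 and 66.4 FPKM in WT and at 34.2 to 39.9 FPKM in the 6 knockout samples. Its log2 fold changes were -0.66, -0.63 and -0.81 (standard error 0.11 each, limma-trend adjusted p = 0.00204, 0.00288 and 0.000611). Smad4, the shared partner of the signalling SMADs, was at 36.8 and 43.6 FPKM in WT and at 21.8 to 28.6 in the knockouts. The Smad4 changes were -0.52, -0.71 and -0.71 (limma-trend adjusted p = 0.0126, 0.00340 and 0.00239), and the E1-KO call was lost without E1-KO replicate 1 (-0.47, 0.0882) or WT replicate 2 (-0.40, 0.113). Zfp423, a zinc finger cofactor of SMAD1 and SMAD4, was at 1.48 and 1.44 FPKM in WT, 8.02 and 6.14 in E1-KO, 9.63 and 6.30 in E2-KO, with E3-KO at 2.40 and 3.20. Its changes in E1-KO and E2-KO were 1.71 and 1.84 (limma-trend adjusted p = 0.000536 and 0.000441). In E3-KO the change of 0.62 (limma-trend adjusted p = 0.0358) was lost without E3-KO replicate 2 (0.47, 0.174), WT replicate 1 (0.63, 0.112) or WT replicate 2 (0.61, 0.131), and with all genes above 0 (0.0840). Of the 9 tested genes in this list, E1-KO had 1 higher and 4 lower, E2-KO 1 higher and 4 lower, and E3-KO 1 higher and 3 lower. In all, 55.6%, 55.6% and 44.4% were called, against 38.0%, 36.1% and 44.7% of all tested genes.

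Of 7 receptor and coreceptor genes tested, E1-KO had 5 lower and 0 higher, E2-KO 4 lower and 0 higher, and E3-KO 3 lower and 2 higher. In all, 71.4%, 57.1% and 71.4% were called, against 38.0%, 36.1% and 44.7% of all tested genes, a difference that was not tested. Lower calls also outnumbered higher calls over all genes (23.0%, 22.0% and 30.8% lower, 15.0%, 14.2% and 13.9% higher). This excess was small or gone with median-ratio scaling, so nothing particular to these 7 genes is read from the counts. Rgmb, for a BMP coreceptor, was at 3.54 and 3.58 FPKM in WT and at 1.16 to 1.82 in the knockouts, with log2 fold changes of -1.03, -0.79 and -0.93 (limma-trend adjusted p = 0.00101, 0.00370 and 0.00123). Acvr2b, for a type II receptor shared with activins, was at 13.6 and 13.4 FPKM in WT, 8.47 and 9.96 in E1-KO, 7.26 and 8.37 in E2-KO, with E3-KO at 6.00 and 6.81. Its changes were -0.51, -0.72 and -0.97 (limma-trend adjusted p = 0.0144, 0.00349 and 0.000611). The E1-KO call of Acvr2b was lost without WT replicate 1 (-0.50, 0.0784), WT replicate 2 (-0.52, 0.0766) or E1-KO replicate 1 (-0.41, 0.115), and with quantile normalization (-0.38, 0.0540). Acvr1, for a type I receptor, was at 5.97 and 6.31 FPKM in WT and 2.58 to 4.26 in the knockouts. The Acvr1 changes of -0.57, -0.72 and -0.61 (limma-trend adjusted p = 0.0355, 0.0148 and 0.0231) were each lost without WT replicate 1 (adjusted p = 0.108, 0.0616 and 0.0773) or WT replicate 2 (0.156, 0.0880 and 0.113). The same held without either E1-KO replicate (0.100 and 0.149), E2-KO replicate 1 (0.0724) or either E3-KO replicate (0.0711 and 0.0707). The Acvr1 calls in E1-KO and E3-KO also ended with median-ratio scaling (0.0565 and 0.0689), quantile normalization (0.0858 and 0.0892) and all genes above 0 (0.0820 and 0.0575). The 2 receptor genes higher in E3-KO, named after their values were seen, were Eng (0.50, limma-trend adjusted p = 0.00384), for the coreceptor endoglin, and Rgma (0.45, 0.0457), for a coreceptor related to that of Rgmb. Eng was at 71.7 and 75.4 FPKM in WT and 112 and 97.8 in E3-KO, and Rgma at 2.25 and 2.40 in WT and 3.39 and 3.70 in E3-KO. The Eng call in E3-KO held under every alternative run. That of Rgma was lost with all genes above 0 (0.0763), a pseudocount of 0.1 (0.0646), or without either replicate of WT (0.171 and 0.129), E3-KO (0.0787 and 0.151) or E1-KO (0.0635 and 0.0633).

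**Figure D4:**
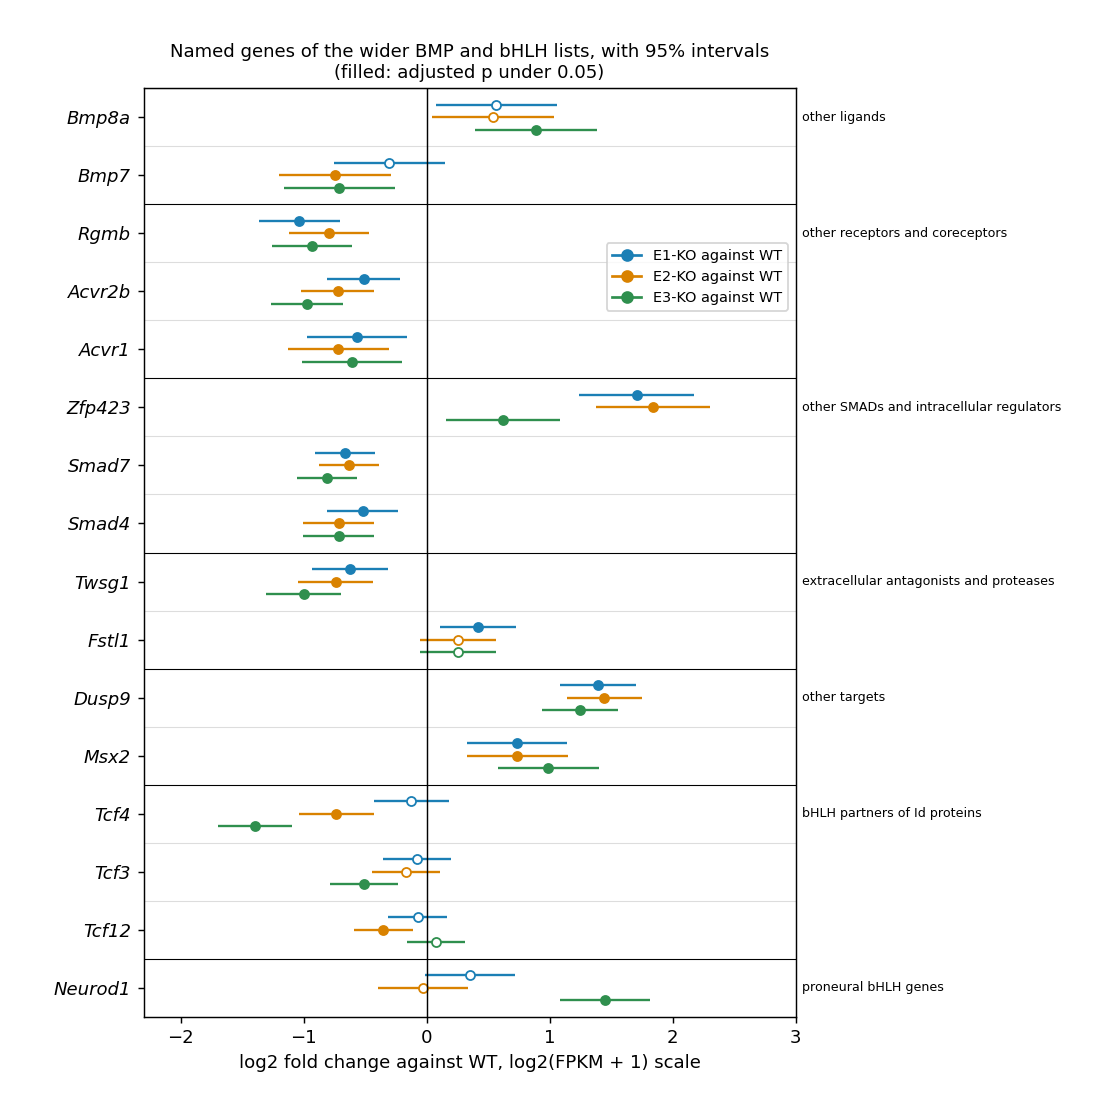
Log2 fold changes against WT on the log2(FPKM + 1) scale (horizontal axis) for 16 further genes, grouped by list, with 95% intervals from limma-trend and filled points where the adjusted p fell below 0.05. Points of Dusp9 (1.25 to 1.45), Zfp423 (0.62 to 1.84) and Msx2 (0.74 to 0.99) are filled and lie to the right in all 3 knockouts. Msx2 entered the test only through the knockouts. Points of Rgmb, Acvr2b, Acvr1, Smad7, Smad4 and Twsg1 are filled and lie to the left in all 3. The remaining genes are not filled in every knockout.

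Of the other ligand genes, 2 of 13 were tested. Bmp8a was at 1.33 and 1.03 FPKM in WT, 1.88 and 2.61 in E1-KO, 1.74 and 2.64 in E2-KO, with E3-KO at 3.76 and 2.42. It was higher in E3-KO by 0.89 (limma-trend adjusted p = 0.0101), a call lost without E3-KO replicate 1 (0.65, 0.0631) or WT replicate 2 (0.79, 0.0711). In E1-KO and E2-KO the Bmp8a differences of 0.57 and 0.54 did not pass (limma-trend adjusted p = 0.0687 and 0.0830). Bmp7 was at 4.09 and 4.25 FPKM in WT, 3.77 and 2.68 in E1-KO, 1.58 and 2.70 in E2-KO, with E3-KO at 2.34 and 2.00. It was lower in E2-KO by a log2 fold change of -0.74 and in E3-KO by -0.71 (limma-trend adjusted p = 0.0198 and 0.0190). Both Bmp7 calls were lost without WT replicate 1 (0.0794 and 0.0722) or WT replicate 2 (0.0988 and 0.0924). The E2-KO call was lost without E2-KO replicate 1 (-0.48, 0.116) and with all genes above 0 (0.0536), and the E3-KO call without E3-KO replicate 2 (-0.63, 0.0871). The identifier of Bmp7 had several rows, and summing them gave -0.43 in E3-KO (limma-trend adjusted p = 0.116).

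Of the extracellular antagonists and proteases, 3 of 16 were tested. Twsg1, whose product binds BMPs outside the cell, was at 19.8 and 18.8 FPKM in WT, 12.1 and 12.3 in E1-KO, 9.69 and 12.9 in E2-KO, with E3-KO at 9.03 and 9.28. The log2 fold changes were -0.62 (E1-KO) and -0.74 (E2-KO). The E3-KO mean was 0.474 times the WT mean (limma-trend adjusted p = 0.00743, 0.00375 and 0.000644), and the E1-KO call was lost without WT replicate 1 (-0.59, 0.0542). Fstl1 was at 9.67 and 9.73 FPKM in WT and 13.5 and 13.1 in E1-KO, where the change of 0.42 (limma-trend adjusted p = 0.0406) was lost on leaving out any of these 4 samples (adjusted p from 0.121 to 0.163) and with all genes above 0 (0.0702). In E3-KO its difference of 0.26 did not pass (adjusted p = 0.161), and it passed with median-ratio scaling (0.41, 0.0362) and quantile normalization (0.47, 0.0247). In E2-KO the difference of 0.25 (limma-trend adjusted p = 0.178) passed without E2-KO replicate 2 (0.45, 0.0282).

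The E protein genes, whose products Id proteins bind, were all tested. Tcf4 was at 22.1 and 20.5 FPKM in WT, 19.2 and 19.7 in E1-KO, 12.5 and 12.3 in E2-KO, with E3-KO at 6.45 and 8.65. The levels of Tcf4 fell in E2-KO by 0.73 and in E3-KO by 1.39 on the log2 scale (limma-trend adjusted p = 0.00370 and 0.000138), while E1-KO was -0.12 from WT (0.491). Tcf3 was at 51.0 and 57.6 FPKM in WT and 34.6 and 41.4 in E3-KO, where the change of -0.51 (limma-trend adjusted p = 0.00957) was lost without E3-KO replicate 1 (-0.38, 0.0504) or WT replicate 2 (-0.42, 0.0847) and with median-ratio scaling (-0.34, 0.0615). Tcf12 was at 13.3 and 14.2 FPKM in WT and 10.7 and 10.4 in E2-KO, where the change of -0.35 (limma-trend adjusted p = 0.0290) was lost on leaving out any WT, E1-KO or E2-KO sample (adjusted p from 0.0501 to 0.173) with median-ratio scaling (-0.28, 0.0685) and with quantile normalization (-0.20, 0.156).

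Of the 6 proneural bHLH genes, which Id proteins oppose through the E proteins, only Neurod1 passed the filter. It was at 1.15 and 1.45 FPKM in WT, 1.69 and 2.20 in E1-KO, 1.18 and 1.32 in E2-KO, with E3-KO at 5.79 and 4.79. The change in E3-KO was 1.45 (standard error 0.16, limma-trend adjusted p = 0.000257). In E1-KO and E2-KO the differences of 0.35 and -0.03 did not pass (limma-trend adjusted p = 0.115 and 0.909). Beside these, 2 of 4 neural markers were analysed here, Pax6 and Nes, and their summed level was 5.54 to 6.43 FPKM in WT, 9.76 to 11.1 in E1-KO, 8.39 to 8.66 in E2-KO and 11.5 to 12.0 in E3-KO. Nes was called higher in E3-KO and, less firmly, in E1-KO, where the call was lost without any WT or E1-KO sample (adjusted p from 0.0531 to 0.219 by limma-trend). Pax6 passed the filter on low values only through the knockouts, so its calls are not counted. It was at 0.315 and 0.555 FPKM in WT, 2.50 and 2.28 in E1-KO and 1.78 and 0.841 in E2-KO. Of 6 fibroblast markers, Thy1 and Acta2 passed the filter only through knockout samples, so their calls are not counted. Thy1 was at 0.840 and 0.695 FPKM in WT and 1.23 to 2.85 in the knockouts, and Acta2 at 6.19 and 2.42 in E1-KO and at most 1.03 elsewhere. Pdgfrb passed the filter in every group and was not called. Its log2 fold changes were -0.01, -0.36 and -0.43 (limma-trend adjusted p = 0.971, 0.103 and 0.0536). Col1a1, Col1a2 and S100a4 were below 1 FPKM in every sample. The 6 markers had sums of 3.37 to 3.38 FPKM in WT, 8.00 to 11.5 in E1-KO, 4.36 to 4.93 in E2-KO and 4.90 to 5.03 in E3-KO. Mesoderm markers (4 genes, none tested) summed to 2.39 to 2.94 FPKM in WT. The sums were 1.60 to 1.87 in E1-KO, 1.43 to 2.04 in E2-KO and 1.93 to 2.47 in E3-KO. T was at 1.70 and 2.09 FPKM in WT and 0.0363 to 0.348 in the knockouts. Mixl1 was at 0.0928 and 0.160 FPKM in WT and 0.343 to 0.920 in the knockouts. For Kdr these were 0.536 and 0.691, and 0.725 to 1.08, and Mesp1 was at most 0.134 in any sample. The part of such cells in any level above was not tested.

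Genes with a profile like that of a member were named by Pearson correlation of log2(FPKM + 1) over the 8 samples, among 8395 to 8396 genes whose mean reached 5 FPKM. With 2 samples per group and libraries shared by all genes, these are descriptions. The most alike to Id1 were Btf3 (0.989), Tma16 (0.987) and Dppa2 (0.986). For Id3 they were Abt1 (0.951), Rps23 (0.945) and 2310011J03Rik (0.940), and for Bmp4 they were E2f4 (0.966), Srsf4 (0.966) and E2f8 (0.960).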

How the data were processed

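Total RNA of 8 samples (2 biological duplicates in each of 4 groups) was sequenced from libraries made with a total RNA kit, per the labels' protocols. The submitters' processing notes name Trimmomatic 0.36, TopHat2 2.0.12, Cufflinks 2.2.1 and the build mm9, with no role or order. The authors deposited a gene identifier and a value per row. The values were taken as FPKM as deposited, from the named Cufflinks and from values that are not whole and have unequal totals. Counting options, strand, annotation and scaling between samples are not given in the sources used here.

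Each file held 18774 rows and 17812 identifiers. For 660 identifiers with several rows, the row at the gene's place in genome order was kept (579 kept, 81 left out), which gave 17731. Each of the 10 members had 1 row. Symbols came from a gene name table and positions from GENCODE M21 (GRCm38). The files carry no coordinates, and the authors' build was mm9, so coordinates refer to the annotation.

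Genes whose mean reached 1 FPKM (11272) were tested on log2(FPKM + 1) with limma-trend (limma 3.58.1, R 4.3.3), two-sided, all 8 samples in the same fit with group as the only term and 4 residual degrees of freedom. Genes were called at a Benjamini-Hochberg adjusted p under 0.05. Depth in reads was unknown, so no counting intervals are given. Each p-value sets a difference against the spread between the duplicates, which limma-trend moderates with the spread of the other tested genes. Same-numbered replicates did not deviate together, so no block was used. The members and lists were chosen with earlier results of these data known. All 10 members are named, and from each further list up to 3 genes with the largest change among those called in a knockout. The 3 genes most correlated with Id1, Id3 and Bmp4 are also named. Alternatives were the replicate number as a block, median-ratio scaling, quantile normalization, a mean filter of 5 FPKM, all genes above 0, a pseudocount of 0.1, no trend, summed rows and leaving out each sample. Figures were drawn with matplotlib 3.10.9.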

Additional observations from a re-analysis of the deposited data

Results flagged for a closer look

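Several genes differed between knockouts in how far they stood from WT, tested directly in limma-trend, in log2(FPKM + 1). Among the 10 genes, Bmp4 was lower in E3-KO than in E1-KO (-0.92, adjusted p = 0.00851), and Id2 was higher in E3-KO than in E1-KO (1.19, adjusted p = 0.00101) and E2-KO (1.13, adjusted p = 0.0025). Zfp423 was lower in E3-KO than in E1-KO (-1.09, adjusted p = 0.00561) and E2-KO (-1.22, adjusted p = 0.00628). Tcf4 was lower in E3-KO than in E1-KO (-1.27, adjusted p = 0.00042) and E2-KO (-0.66, adjusted p = 0.0133), and Tcf3 was lower in E3-KO than in E1-KO (-0.43, adjusted p = 0.0319). Tcf12 was higher in E3-KO than in E2-KO (0.43, adjusted p = 0.0267). Neurod1 was higher in E3-KO than in E1-KO (1.10, adjusted p = 0.00181) and E2-KO (1.48, adjusted p = 0.00115). Acvr2b was lower in E3-KO than in E1-KO (-0.46, adjusted p = 0.0301). The Neurod1 differences, those of Zfp423 from E2-KO and of Tcf4 from E1-KO held under every alternative run. Zfp423 against E1-KO was lost without E1-KO replicate 1 (adjusted p = 0.0521) and Tcf4 against E2-KO without E2-KO replicate 1 (0.0549). Acvr2b was lost with median-ratio scaling (0.0768), quantile normalization (0.0712), all genes above 0 (0.0509) and without either E1-KO replicate (0.061 and 0.19), E3-KO replicate 1 (0.116) or either WT replicate (0.0578 and 0.0577). Tcf3 was lost with median-ratio scaling (0.096), quantile normalization (0.0944), all genes above 0 (0.054) and without either E1-KO replicate (0.158 and 0.111), E3-KO replicate 1 (0.145) or either WT replicate (0.051 each). Tcf12 was lost without any sample other than E3-KO replicate 1 (0.0511 to 0.0852). Each sample was left out in turn, but with 2 samples per group an outlying sample cannot be told from its duplicate.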

How the results depend on the processing

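The calls of Id1, Id4 and Dusp9 in each knockout and of Id2 in E3-KO held under every alternative in which the gene was tested. Replicate numbers did not pair the samples (mean correlation of deviations 0.0047 over 6 pairs of groups, range -0.0426 to 0.0892). With the replicate block, no call of a member changed, those of Eng (adjusted p = 0.0511) and Esrrb (0.0558) in E1-KO and of Pax6 in E2-KO (0.0586) were lost, 4, 3 and 5 members were called against WT as before, and E2-KO against E1-KO had 31 genes called in place of 94. With a mean of at least 5 FPKM, fewer members were tested, and 1, 1 and 2 were called in E1-KO, E2-KO and E3-KO against WT and 0 in E3-KO against E1-KO or E2-KO. E2-KO against E1-KO then had 58 genes called, and 1 with all genes above 0. Leaving out each sample gave these counts of genes called: 2040 to 4671 for E1-KO against WT (4283 with all samples), 1870 to 4453 for E2-KO against WT (4071 with all samples), 2828 to 5339 for E3-KO against WT (5037 with all samples), 2 to 262 for E2-KO against E1-KO (94 with all samples), 1309 to 3276 for E3-KO against E1-KO (2911 with all samples), 974 to 1550 for E3-KO against E2-KO (1754 with all samples). Members called ran over 2 to 4 for E1-KO against WT, 2 to 5 for E2-KO against WT, 4 to 5 for E3-KO against WT, 1 to 2 for E3-KO against E1-KO, 1 to 2 for E3-KO against E2-KO. With a sample left out, the lone sample of its group was taken to vary like the other groups. Changes of sign met only differences that were not called. With median-ratio scaling, log2 fold changes that changed sign were 0.0697 for Bmp4, E3-KO against WT, 0.00612 for Smad1, E1-KO against WT, 0.152 for Smad5, E3-KO against WT, 0.0196 for Neurod1, E2-KO against WT. With quantile normalization, log2 fold changes that changed sign were 0.0743 for Bmp4, E3-KO against WT, 0.0427 for Smad1, E1-KO against WT, 0.203 for Smad5, E3-KO against WT, 0.0673 for Tcf12, E1-KO against WT. Leaving out each sample gave ranges across 0 of -0.314 to 0.196 for Bmp4, E3-KO against WT, -0.136 to 0.0168 for Smad1, E1-KO against WT, -0.163 to 0.165 for Smad5, E2-KO against WT, -0.156 to 0.141 for Smad5, E3-KO against WT, -0.187 to 0.279 for Id3, E1-KO against WT, -0.0449 to 0.726 for Id3, E3-KO against WT, -0.163 to 0.00835 for Tcf3, E1-KO against WT, -0.122 to 0.0687 for Neurod1, E2-KO against WT. The cause of these changes was not tested. Depth in reads was unknown, so what depth limits in low genes such as Bambi cannot be stated.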
